A study of Gallus gallus with 4 samples.

Results

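The major histocompatibility complex of the chicken, the B complex, was followed through 8 genes in the liver of broiler chickens. They are B2M, BF1, TAP1 and TAP2 of the class I pathway, BLB1, DMB2 and CD74 of the class II pathway, and V-BG of the B-G family. Members were all probes whose RefSeq accession on the array belongs to one of these genes, which gave 20 of 43603 probes. All 20 passed the filter on dim signal, and each is described apart, because allele differences between birds can change what a single probe binds. BF1 has 5 probes, B2M, BLB1 and TAP1 have 3 each, TAP2 and CD74 have 2 each, and DMB2 and V-BG have 1 each.

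Class I molecules sit on nearly all nucleated cells and show peptides from inside the cell to cytotoxic T cells. Their heavy chain, made by the BF genes in chicken, pairs with the small chain β2-microglobulin, made by B2M, and is loaded with peptides that the TAP1 and TAP2 pump carries into the endoplasmic reticulum. Class II molecules show peptides from taken-up material to helper T cells. They are made mainly by antigen-presenting cells, which in liver include Kupffer cells, dendritic cells and B cells. B-G proteins are relatives of the butyrophilins and were first known as antigens of chicken red cells. The RefSeq gene table places BF1, BLB1, DMB2, TAP1, TAP2 and V-BG on chromosome 16, B2M on chromosome 10 and CD74 on chromosome 13.

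Liver of coloured broilers aged 35 days was compared between 2 groups on 4 one-colour Agilent arrays, with 2 arrays of pooled RNA per group. The chicks lived in single cages with free access to feed. The labels mark group 1 as high and group 2 as low, and use these words both to feed efficiency (FE) and to residual feed intake (RFI), the feed eaten beyond what growth and size predict, so the groups keep their numbers here. The labels name females only, apart from a male and a female for group 2 replicate 2, and the series text describes 1 pool per group that was divided into both replicates. Nothing further in the labels says that the arrays hold separate birds, so p-values measure only the spread between these samples. All 4 arrays lay on 1 slide and came from 1 scan, so a place on the slide and a group cannot be told apart. Pools of liver also mean that fewer cells of a type and less RNA per cell cannot be told apart.

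One array stood apart from its label. The median of the 8 probes of HINTW, a gene of the female W chromosome, was 6.16, 5.98 and 5.87 on group 1 replicates 1 and 2 and on group 2 replicate 2, but -3.85 on group 2 replicate 1, an array whose label names females. These and all further levels are log2 of the processed intensity minus the array's 75th percentile, so that 0 marks the 75th percentile and 1 unit is a 2-fold step. The group 2 arrays thus differ by more than 2 parts of 1 pool would, while for group 1 the spread may be technical. Over 416 probes of the sex chromosome Z, each taken minus its own median, the array median was 0.37 on group 2 replicate 1. It was -0.04, -0.07 and -0.02 on group 1 replicates 1 and 2 and on group 2 replicate 2. Sex may thus differ within group 2 and between the groups, which was not tested. Results are therefore also given without group 2 replicate 1. By the labels this does not match the sexes, since group 2 replicate 2 names a male and a female and group 1 only females. The HINTW and Z values of group 2 replicate 2 given above nevertheless lay near those of group 1. Whether the sexes match without group 2 replicate 1 was not tested. Of 11 measured hepatocyte markers, such as albumin and the fibrinogen chains, 0 were called in limma. Their median log2 difference was 0.05 (-0.16 with arrays scaled on their medians). Each was well above background on all 4 arrays, as the liver label requires. Markers of intestinal epithelium differed between the groups, as given below.

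Group 1 had less B2M and V-BG signal, and more signal on at least 1 probe each of BF1, BLB1, DMB2 and CD74, while no probe of the TAP genes passed the test. In the limma fit over all 33866 tested probes, an adjusted p under 0.05 counted as a call, and 8 of the 20 probes were called, 4 higher and 4 lower in group 1. Over all tested probes 11.2% were called, 7.39% higher and 3.82% lower. The groups did not overlap for 16 of the 20 probes, against 67.3% of all tested probes. The 11 probes of BF1, BLB1, DMB2 and CD74 all lay higher on both group 1 arrays than on both group 2 arrays, which 40.9% of all probes did. The 3 probes of B2M, the V-BG probe and 1 TAP2 probe lay lower, as 26.4% of all probes did.

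**Figure D1:**
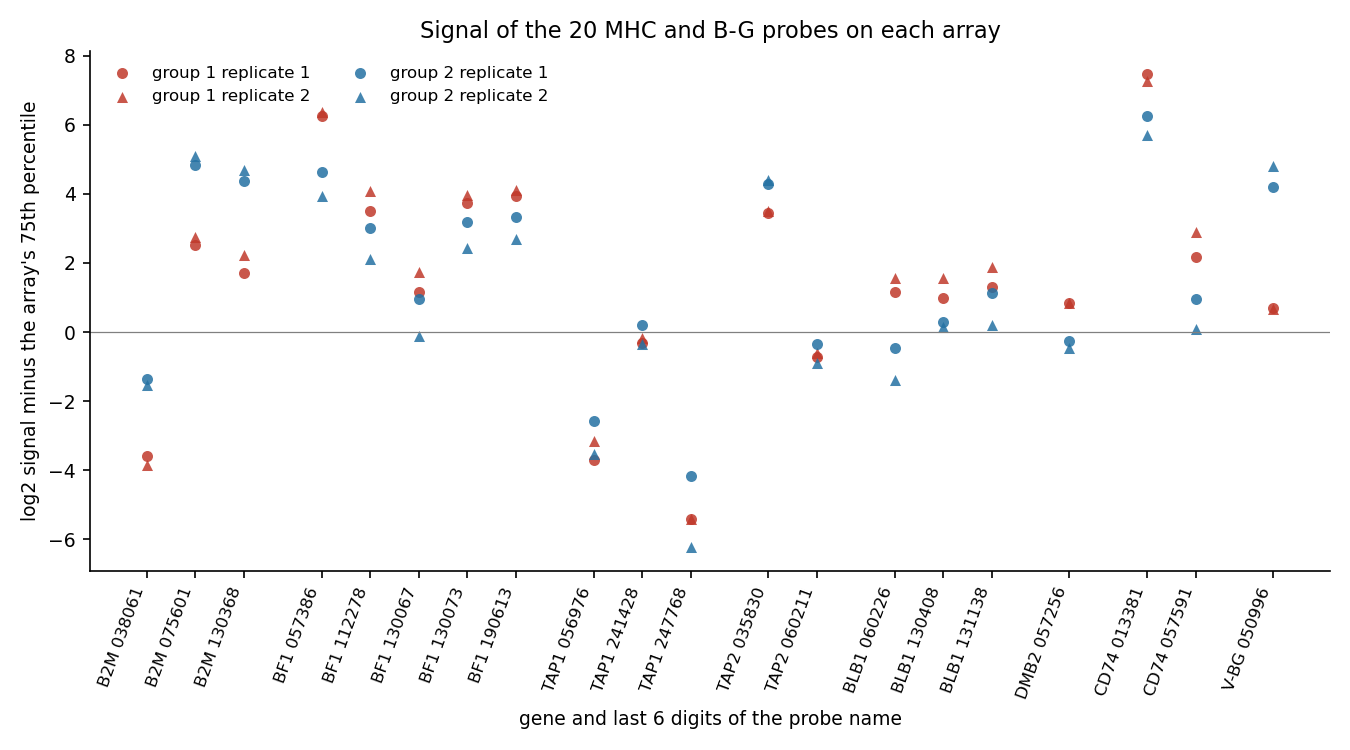
Signal of each of the 20 probes (x axis, grouped by gene) on the 4 arrays, on the scale of levels given above (log2, y axis). Red marks stand for group 1, blue marks for group 2, circles for replicate 1 and triangles for replicate 2. Colours are to be compared within a probe, since probes differ in how strongly they bind. All blue marks lie above the red ones for B2M and V-BG and below them for BF1, BLB1, DMB2 and CD74.

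The median difference of all tested probes was 0.18 with this scaling and -0.03 with arrays scaled on their medians, so differences are relative to a centre that the scaling moves. Measured from the median of all probes, the 4 higher calls stood at 1.03 to 2.12 and the 4 lower ones at -2.45 to -3.99 (log2). With median scaling the split was 2 higher and 5 lower calls, and over all probes the share of calls that were higher went from 65.9% to 45.6%. Without group 2 replicate 1 the calls numbered 15, 10 higher and 5 lower, and 8507 of all probes were called. Without either group 1 array every call was lost, for the member probes as for all other probes. With 1 array left out, the spread is taken only from the 2 arrays of the other group. Between these 2 arrays the differences had an SD over probes of 0.42 in group 1 and 0.79 in group 2. Counts of calls with an array left out therefore cannot show how firm a call is. For 1 probe alone, the smallest p that exact two-sided permutation of 2 and 2 arrays allows is 0.333.

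B2M, the shared small chain of class I molecules, was lower in group 1 on all 3 of its probes. Its brightest probe, A_87_P075601, read 2.53 and 2.75 on the group 1 arrays and 4.84 and 5.10 on the group 2 arrays. In processed intensity these are 5644 and 9782 units against 33571 and 43832 units. Every group 2 value was above every group 1 value, with a gap of 2.09 between the nearest arrays. The log2 difference, group 1 minus group 2, was -2.33 ± 0.22 (SE, n = 2 arrays per group, limma, adjusted p = 0.0212), a 5.03-fold difference.

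The other two B2M probes moved alike. Probe A_87_P130368 read 1.70 and 2.23 in group 1 and 4.38 and 4.69 in group 2, a difference of -2.57 ± 0.28 (limma, adjusted p = 0.0234). Probe A_87_P038061, the dimmest, read -3.58 and -3.84 in group 1 and -1.35 and -1.53 in group 2, a difference of -2.27 ± 0.22 (limma, adjusted p = 0.0212). Neither passed the test of its group difference against that of the brightest probe (0.06 ± 0.27 and -0.24 ± 0.18, limma, adjusted p = 0.915 and 0.448). Without group 2 replicate 1 the brightest probe differed by -2.46, and with either group 1 array left out the sign stayed but the call was lost (limma, adjusted p = 0.273 and 0.210).

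BF1, which encodes a class I heavy chain, ran the other way. Its brightest probe, A_87_P057386, read 6.24 and 6.37 on the group 1 arrays and 4.63 and 3.94 on the group 2 arrays. The difference was 2.02 ± 0.30 (limma, adjusted p = 0.0327), or 4.05-fold, and the nearest arrays of the groups were 1.61 apart. The group 2 arrays differed more from each other (SD 0.49) than the group 1 arrays (SD 0.09), with group 2 replicate 2 the lower one on all 5 probes.

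The other 4 BF1 probes lay in the same order but nearer together, and none passed the test. Probe A_87_P190613 read 3.93 and 4.12 against 3.33 and 2.68, a difference of 1.02 ± 0.29 (limma, adjusted p = 0.0888). Probe A_87_P130073 read 3.73 and 3.96 against 3.19 and 2.44, a difference of 1.03 ± 0.32 (adjusted p = 0.102). The groups did not overlap on either probe. Probe A_87_P112278 read 3.49 and 4.10 against 3.01 and 2.12, a difference of 1.23 ± 0.40 (adjusted p = 0.110). Probe A_87_P130067 read 1.16 and 1.75 against 0.95 and -0.11, a difference of 1.03 ± 0.44 (adjusted p = 0.174), and here the nearest arrays were only 0.22 apart.

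Whether probes of one gene gave different answers was tested with a fit of each probe minus the brightest probe of its gene, over 5572 such pairs of all genes with several probes. This fit was added after the data were seen. The 4 dimmer BF1 probes showed smaller group differences than the brightest one by 0.79 to 1.00 log2 units, which did not pass (limma, adjusted p = 0.0593 to 0.138). Among the 12 pairs of the members 0 passed in limma, against 0.108% of all pairs. An unadjusted p under 0.05 was found for 6 of the 12, 2 of them above the brightest probe (11.1% of all pairs) and 4, all of BF1, below it (16.1% of all pairs). Without group 2 replicate 1 the differences of the 5 BF1 probes ran from 1.34 to 2.36. Without either group 1 array the brightest one was not called (limma, adjusted p = 0.293 and 0.220).

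BF2 is the second class I heavy chain gene of the B complex and the one more strongly used in most chicken lines. The gene is close to BF1 in sequence, so a probe named for one may read both. Its brighter probe, A_87_P058651, read 6.26 and 6.34 in group 1 and 4.39 and 3.66 in group 2, a difference of 2.27 ± 0.31 (limma, adjusted p = 0.0297). Its other probe, A_87_P060206, read 3.52 and 3.76 against 2.99 and 2.25, a difference of 1.02 that did not pass (adjusted p = 0.103). As for BF1, only the brightest probe of the gene was called, and the called probes of BF1 and BF2 read close to each other on every array. Heavy chain probes thus lay higher in group 1 while the probes of their partner chain B2M lay lower.

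**Figure D2:**
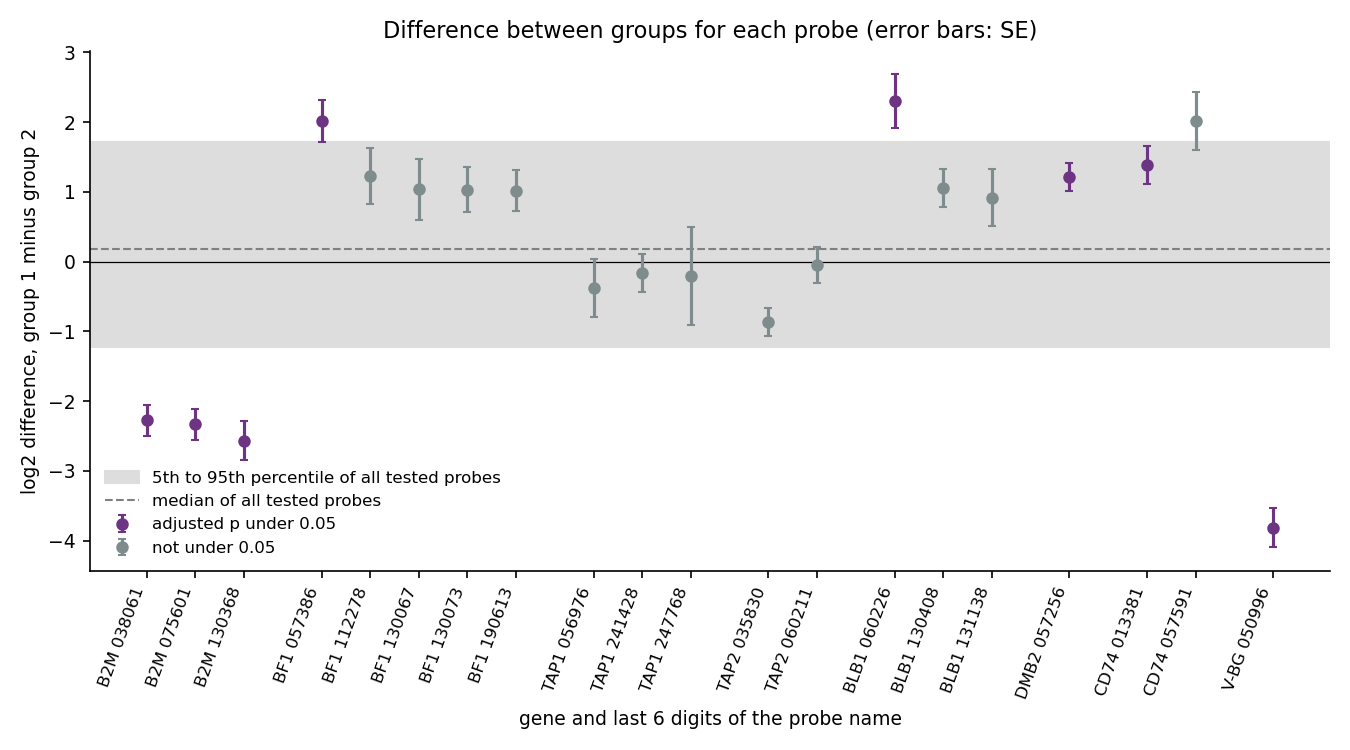
Log2 difference between groups, group 1 minus group 2 (y axis), for each of the 20 probes (x axis), with SE as error bars and called probes in purple. The grey band runs from the 5th to the 95th percentile of all tested probes and the dashed line is their median of 0.18. The 3 B2M probes and V-BG lie below the band, 1 BF1, 1 BLB1 and 1 CD74 probe lie above it, and the TAP probes lie inside it.

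TAP1 and TAP2, the partners in the peptide pump, gave 0 calls on 5 probes in limma. Of all 33866 tested probes 11957 had an unadjusted p under 0.05 (limma), and of these 5 only 1 had. That one was the brighter TAP2 probe, A_87_P035830, with 3.45 and 3.51 in group 1 and 4.29 and 4.40 in group 2. The groups did not overlap and both replicates were close, but the difference of -0.86 ± 0.20 missed the threshold (adjusted p = 0.0595). It passed with median scaling (-1.08, limma, adjusted p = 0.0436) and after normexp (adjusted p = 0.0339). It did not pass with quantile normalization (limma, adjusted p = 0.0583), without the filter (0.0962), with the replicate block (0.111) or without moderation (0.129). Without group 2 replicate 1 or 2 the difference was -0.92 or -0.81, and without group 1 replicate 1 or 2 it was -0.83 or -0.89. The other TAP2 probe, A_87_P060211, read -0.72 and -0.62 against -0.36 and -0.88, with overlapping groups and a difference of -0.05 ± 0.26 (adjusted p = 0.905). The difference between the 2 TAP2 probes was 0.81 ± 0.27 (limma, adjusted p = 0.159).

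The 3 TAP1 probes overlapped between groups. Probe A_87_P241428, the brightest, read -0.31 and -0.17 in group 1 and 0.21 and -0.36 in group 2, a difference of -0.17 ± 0.27 (limma, adjusted p = 0.688). Probe A_87_P056976 read -3.71 and -3.17 against -2.58 and -3.54, a difference of -0.38 ± 0.41 (adjusted p = 0.538). Probe A_87_P247768 was near background, read -5.40 on both group 1 arrays and -4.16 and -6.22 on the group 2 arrays, and was not well above background on group 2 replicate 2. On all 3 probes group 2 replicate 1 was the highest array, and without it their differences were 0.12, 0.10 and 0.82, the last of them past the threshold (limma, adjusted p = 0.0477). Without group 2 replicate 2 that probe differed by -1.23 (adjusted p = 0.0253), so its sign rests on which group 2 array is kept.

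All 6 class II pathway probes lay higher on both group 1 arrays than on both group 2 arrays, as 40.9% of all tested probes did. Of the 6 probes 3 were called, 1 of each gene, against 7.39% of all tested probes called higher. BLB1 encodes a class II β chain. Its probe A_87_P060226 read 1.17 and 1.57 in group 1 and -0.46 and -1.39 in group 2, a difference of 2.30 ± 0.39 (limma, adjusted p = 0.0377), or 4.91-fold. The groups lay 1.63 apart at their nearest arrays.

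The 2 further BLB1 probes gave smaller differences and were not called. Probe A_87_P130408 read 0.98 and 1.56 against 0.29 and 0.15, a difference of 1.05 ± 0.27 (limma, adjusted p = 0.0741). Probe A_87_P131138, the brightest of the gene, read 1.30 and 1.90 against 1.14 and 0.22, a difference of 0.92 ± 0.41 (adjusted p = 0.188). On this last probe group 2 replicate 1 came within 0.16 of the lower group 1 array. The called probe exceeded the brightest one by 1.38 ± 0.16 in its group difference (limma, adjusted p = 0.0576), which did not pass. BLB2, a near-identical class II β chain gene, has no probe named for it here. Reads of BLB1 and BLB2 by these probes cannot be told apart.

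DMB2 encodes a β chain of the DM molecule, which exchanges peptides on class II molecules before they reach the cell surface. Its probe, A_87_P057256, read 0.85 and 0.84 in group 1 and -0.26 and -0.47 in group 2. Both groups were tight (SD 0.01 and 0.15) and the difference was 1.21 ± 0.20 (limma, adjusted p = 0.0381), or 2.31-fold. The call was lost with median scaling (0.99, adjusted p = 0.0505). DMA, which encodes the partner chain, read 0.48 and 0.49 against -0.35 and -0.47, without overlap, and its difference of 0.89 ± 0.20 did not pass (adjusted p = 0.0563).

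CD74 encodes the invariant chain, which holds class II molecules together and blocks their groove until they reach the peptide-loading compartment. Its brighter probe, A_87_P013381, read 7.46 and 7.27 in group 1 and 6.25 and 5.71 in group 2. The difference was 1.38 ± 0.27 (limma, adjusted p = 0.0461), or 2.61-fold, and the groups lay 1.02 apart. The other probe, A_87_P057591, read 2.19 and 2.89 against 0.96 and 0.09, and its larger but less even difference of 2.01 ± 0.42 just missed the threshold (adjusted p = 0.0507). The test between the 2 probes did not pass (0.63 ± 0.36, limma, adjusted p = 0.330). The call of the brighter probe was lost with median scaling (1.17, adjusted p = 0.0601) and quantile normalization (1.34, adjusted p = 0.0627).

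Without group 2 replicate 1 the second CD74 probe differed by 2.45, and the called probes of BLB1, DMB2 and CD74 by 2.76, 1.31 and 1.65. Without group 1 replicate 1 their adjusted p was 0.292, 0.327 and 0.343, and without group 1 replicate 2 it was 0.225, 0.246 and 0.238. On the 6 class II probes group 2 replicate 2 was the lowest array throughout.

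V-BG, a B-G family gene, showed the largest difference of the 20 probes. Its probe, A_87_P050996, read 0.69 and 0.67 in group 1 and 4.19 and 4.80 in group 2. In processed intensity these are 1580 and 2306 units against 21324 and 35507 units. The group 1 arrays were nearly equal (SD 0.02), the group 2 arrays were 0.43 apart in SD, and the nearest arrays of the groups were 3.50 apart. The difference was -3.81 ± 0.28 (limma, adjusted p = 0.0196), or 14.04-fold, and it ranked 30 by size among the differences in that direction over all 33866 probes. It was -4.12 without group 2 replicate 1 and -3.51 without replicate 2, and the call was lost without group 1 replicate 1 or 2 (limma, adjusted p = 0.273 and 0.210).

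The called probes of other B-G genes lay the other way. BG1, a B-G gene inside the B complex, was called higher on 1 of its 5 probes, the brightest, A_87_P053906, which read 2.39 and 2.50 in group 1 and 0.83 and 0.64 in group 2. That difference was 1.71 ± 0.21 (limma, adjusted p = 0.0261). Differences of the other 4 BG1 probes ran from -0.32 to 0.74, none of them past the test (adjusted p = 0.105 to 0.971). BG8 was called higher on 1 of 6 probes, A_87_P060031, with -0.58 and -0.40 against -2.78 and -3.03 and a difference of 2.41 (limma, adjusted p = 0.0212), while its brightest probe, A_87_P054946, differed by 0.68 (adjusted p = 0.104). B-G genes form a large family of close copies whose number varies between chicken lines, and probes of one may read others, so the value of each probe cannot be assigned to 1 gene with certainty. Of 7 measured genes in the list of B-G, butyrophilin and B30.2 relatives, by their brightest probes, 1 was higher, BG1, and 0 were lower. Over all 4872 genes 5.75% were higher and 3.92% lower. The list's median was 0.68, with all 7 above 0, against 0.14 over all genes. The tripartite motif genes TRIM27.1 (1.82, limma, adjusted p = 0.139), with the largest difference of the list, and TRIM39.2 (1.29, adjusted p = 0.136) did not pass. TRIM27.1 read -5.83 on group 2 replicate 1, where it was not well above background, and differed by 0.85 without that array.

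**Figure D3:**
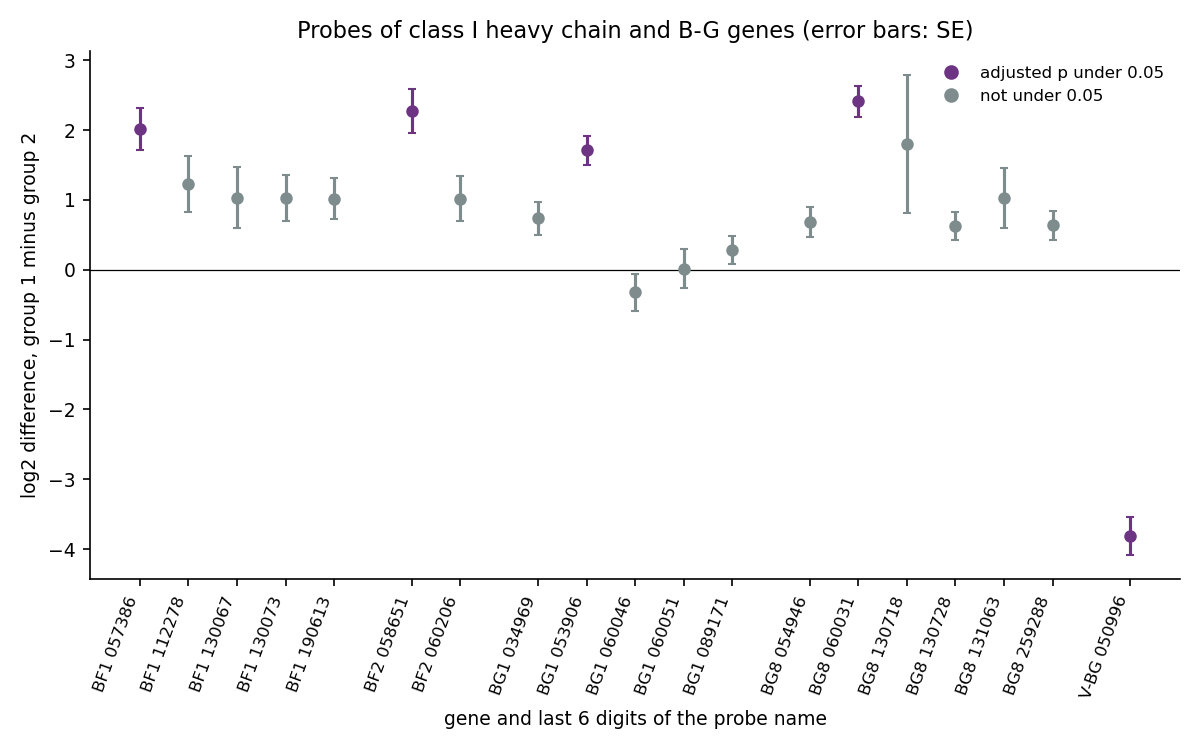
Log2 difference between groups, group 1 minus group 2 (y axis), for each probe (x axis) of the class I heavy chain genes BF1 and BF2 and of the B-G genes BG1, BG8 and V-BG, with SE as error bars and called probes in purple. Each of BF1, BF2, BG1 and BG8 has 1 called probe above 0, and V-BG alone lies far below 0.

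Beyond the members, 24 named genes of chromosome 16 have probes and 21 could be tested. Of these 2 were higher in group 1, BF2 and BG1, and 0 were lower, against 5.75% and 3.92% of all 4872 genes. Their median log2 difference was 0.63, with 18 of 21 above 0, against 0.14 over all genes, and it was 0.43 without group 2 replicate 1 and 0.42 with median scaling. The largest differences that did not pass were IL4I1 (-1.93, limma, adjusted p = 0.0899), an amino acid oxidase of immune cells, and TRIM27.1, given above. Of 52 probes of these genes 3 were called higher and 0 lower, against 7.39% and 3.82% of all tested probes. The third was the BG8 probe above. C4, the complement component encoded beside the BF genes, did not pass on any of its 6 probes (limma). Its brightest probes, A_87_P204233 and A_87_P053901, differed by -0.04 and 0.03, while A_87_P271488 (-1.73, adjusted p = 0.145) and A_87_P204148 (-0.69, adjusted p = 0.125) lay lower in group 1 without overlap. By count the called share of these neighbours, 2 of 21, was near the 9.67% of all genes.

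Among 23 measured genes of the wider antigen presentation machinery 1 was higher, BF2, and 1 was lower, SPPL2A, a protease that cuts the remnant of CD74 (-1.50 ± 0.27, limma, adjusted p = 0.0424). SPPL2A read 2.05 and 1.75 in group 1 and 3.66 and 3.14 in group 2. The median over the list was 0.08, with 12 of 23 above 0, but -0.17 without group 2 replicate 1 and -0.13 with median scaling. Tapasin, the TAPBP product that bridges class I molecules to the peptide pump, differed by -0.19 (adjusted p = 0.549), calnexin (CANX), a chaperone of new heavy chains, by -0.27 (0.377) and the protease cathepsin S (CTSS) by 0.28 (0.543). PSME4, a proteasome activator, differed by 1.20 (adjusted p = 0.0607). By count the called share of this list, 2 of 23, was near the 9.67% of all genes.

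Class I genes respond to interferons, so that pathway was listed as well. Of its 22 measured genes 0 were higher and 2 were lower in group 1, against 5.75% and 3.92% of all 4872 genes. The median was -0.55, or 0.02 without group 2 replicate 1, against 0.14 over all genes. The lower ones were the death ligand TNFSF10, with -0.40 and -0.16 in group 1 against 2.30 and 2.06 (difference -2.46 ± 0.22, limma, adjusted p = 0.0212), and SOCS1, an inhibitor of cytokine signalling, with 0.16 and 0.40 against 2.19 and 2.61 (-2.12 ± 0.25, adjusted p = 0.0257). IRF4 (1.64, adjusted p = 0.166) and IL4I1 had the largest differences that did not pass. IRF1, an activator of class I genes, did not pass (-0.53, adjusted p = 0.175).

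Markers of cells that carry MHC and B-G molecules were set beside these values. Over all 4872 genes 5.75% were called higher and 3.92% lower, 2849 lay above 0, 40.3% lay higher without overlap and the median was 0.14. Of 17 measured T and B lymphocyte markers 0 were called in limma, 15 lay above 0 and 12 did not overlap in that direction, with a median of 0.92 (0.71 without group 2 replicate 1). Their summed signal, in units of the array's 75th percentile, was 219.97 and 223.03 in group 1 and 253.9 and 194.9 in group 2. LY6E, the brightest of them, went the other way, and the other 16 markers summed to 162.4 and 137.5 against 38.6 and 103.6. Highest of these 16 on both group 1 arrays was IGLL1, with log2 levels of 6.76 and 6.38 against 3.51 and 6.10. It was not called (limma, adjusted p = 0.226). Sums weigh bright genes most, so they do not show that the 16 moved together. These sums without the brightest marker were added after the data were seen. On each group 2 array 2 markers were not well above background. CD4 and CCR7 were not well above background on either group 2 array, while CD3D and CD3E were on all arrays. Of 15 markers of macrophages, Kupffer cells, dendritic cells and heterophils 3 were higher (LY86 by 1.82, CD86 by 1.26 and PTPRC by 1.06) and LYG2 was lower (-1.95), and 9 of 15 lay above 0. Their summed signal was 57.8 and 53.3 against 94.9 and 63.4, but 43.6 and 40.5 against 33.7 and 19.5 without LYG2, the brightest.

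Against the same shares of all genes, 4 of 15 erythroid markers were higher in group 1 and 14 lay above 0, with a median of 1.84, or 1.50 without group 2 replicate 1. Their summed signal was 409.1 and 342.03 in group 1 and 46.7 and 159.1 in group 2, with 3 and 1 markers not well above background on group 2 replicates 1 and 2. Of 11 intestinal epithelium markers 8 were higher and all 11 lay above 0, with a median of 3.07. RBP2 read 2.03 and 1.82 in group 1 and -7.04 and -7.45 in group 2. FABP2 read 0.90 and 0.83 against -7.10 and -7.75, and CDX2 -0.79 and -0.68 against -8.07 and -7.21. Each of these was well above background on both group 1 arrays and on neither group 2 array. The summed signal of the list was 325.1 and 250.9 against 272.2 and 253.7, nearly all of it APOA4 (12.02 and 11.4 against 1.74 and 1.38 without it). On each group 2 array 5 of these intestinal markers were not well above background. Of 10 endothelial and stellate cell markers 4 were higher, COL1A2, COL3A1, LUM and DCN, and the median of the list was 1.03. The endothelial markers CDH5, KDR, ENG, CLDN5 and LYVE1 were not called, with differences from 0.01 to 1.05. The summed signal of the list was 26.8 and 24.2 against 9.35 and 7.57, and all were well above background on every array. Apart from LYG2, the called markers of these cell types were thus higher in group 1, as were the called probes of BF1 and the class II genes. B2M and V-BG were lower. The part of these cell types in the results was not tested.

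**Figure D4:**
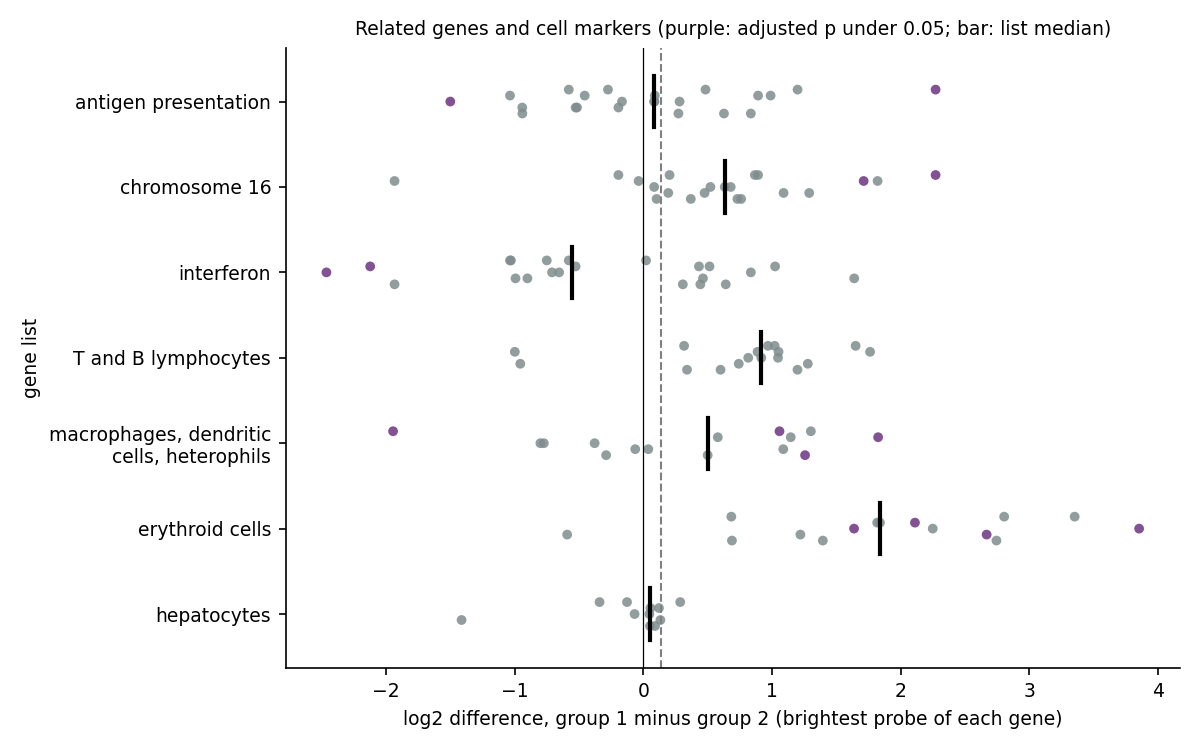
Log2 difference between groups, group 1 minus group 2 (x axis), of the brightest probe of each gene in 7 lists (y axis). Purple points passed the test, the black bar is the list's median and the dashed line is the median of all genes, 0.14. Lymphocyte and erythroid markers lie mostly right of 0 (15 of 17 and 14 of 15), hepatocyte markers lie around it. Not drawn are intestinal epithelium (median 3.07), endothelial and stellate cells (1.03) and B-G, butyrophilin and B30.2 relatives (0.68).

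For the member genes with a called probe, genes of like pattern were sought by the Euclidean distance over the 4 arrays between their brightest probes, each centred on its own mean. Nearest to B2M was SOCS1 (distance 0.24), then CHMP2B of the endosomal sorting machinery (0.34). Nearest to BF1 were CPT1A, which brings fatty acids into mitochondria (0.16), and NFAT5, a transcription factor of salt stress (0.20). For CD74 they were the actin-severing protein GSN (0.11) and the adenosine receptor ADORA3 (0.14), and for DMB2 they were C2CD2L (0.05) and PDZK1IP1 (0.07). For BLB1 they were the calcium pump ATP2A3 (0.16) and TGFBI (0.17). The brightest BLB1 probe, used here, was itself not called (limma, adjusted p = 0.188). Nor were ATP2A3, TGFBI and ADORA3 (limma, adjusted p = 0.146, 0.165 and 0.0555). V-BG had no neighbour as close, with MTIF3 of mitochondrial translation at 0.44 and CYP2C18, a drug-metabolising cytochrome, at 0.61. With 4 arrays in 2 groups such distances mainly sort genes by the size of their group difference.

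**Figure D5:**
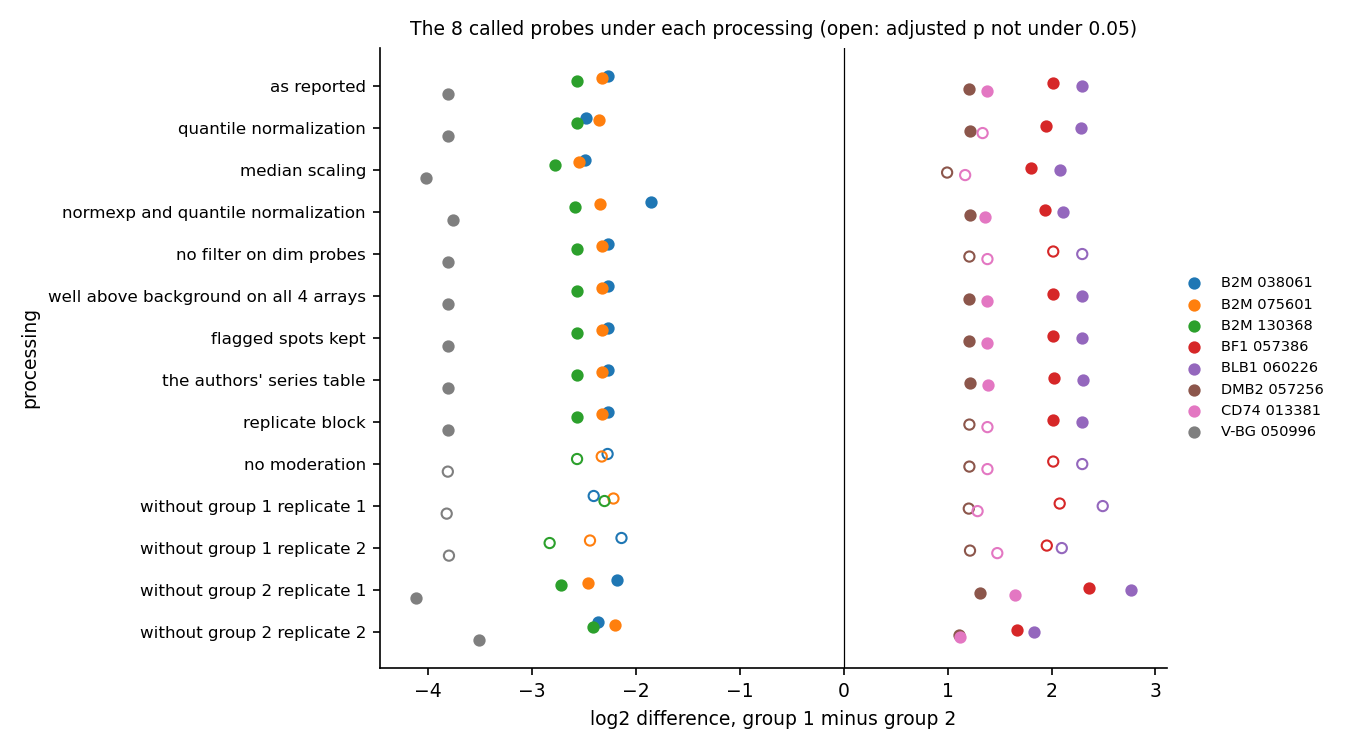
Log2 difference between groups, group 1 minus group 2 (x axis), of the 8 called probes under each processing (y axis), in 1 colour per probe. Filled marks have an adjusted p under 0.05 and open marks do not. Every mark keeps its side of 0, and all 8 are open without moderation and without either group 1 array.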

How the data were processed

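The deposited scanner files give a linear intensity for every spot, already background-subtracted; per the file headers the software was Agilent Feature Extraction, version 11.5.1.1. The authors' deposited series table is in log2 units. A comparison with the scanner files showed its columns to be the log2 intensity less the 75th percentile, with the probe's median of the 4 arrays taken off, and column medians of 0.084, 0.016, -0.094 and -0.022 for group 1 and then group 2 replicates 1 and 2. The values used here are log2 processed intensities from which the 75th percentile of the array's 43803 non-control spots (978.1, 1449.6, 1170.03 and 1277.7 units) was taken. Flagged spots (25, 12, 8 and 13) were left out, no spot was saturated, and repeated spots of a probe were averaged. The filter kept 33869 probes that were well above background on both arrays of 1 group or of both, and 33866 could be tested. Arrays carry no read depth, so their number limits the precision.

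Accessions were matched to the RefSeq gene table of GRCg7b, which named 11935 of 43603 probes for 5382 genes. The array design uses another build, galGal3, so no coordinates are given. In lists a gene stands for its brightest kept probe. The group comparison used lmFit and eBayes of limma 3.58.1 under R 4.3.3 (2 residual and 2.60 prior degrees of freedom), two-sided, with Benjamini-Hochberg adjustment over all tested probes. The code of the fit was checked on simulated arrays with equal spread in both groups. In the data the spread was unequal (SD of replicate differences 0.42 in group 1 and 0.79 in group 2), which this check does not cover. The members and lists were chosen with earlier results of these data known. Named were all probes of the members and, from each list of related genes, the called genes or, with fewer than 4, the largest differences up to 4. Other genes are named as examples chosen after their values were seen. Alternatives were normexp with an offset of 50 on median signals, quantile and median scaling, other filters, flagged spots kept, the authors' table, a replicate block, no moderation, a gene's median probe and leaving out each array.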

Additional observations from a re-analysis of the deposited data

How the results depend on the processing

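The number of called probes among the 20 members was 8, and it was 7 to 10 after quantile normalization, median scaling or normexp, with flagged spots kept, with the authors' table and with only probes well above background on all 4 arrays. Without the filter on dim probes it was 4, with 43600 probes tested. BF1, BLB1, DMB2 and CD74 then missed the threshold (limma, adjusted p = 0.0529, 0.0585, 0.0635 and 0.0718). Without moderation 9 member probes and 8136 of all 33866 tested probes had an unadjusted p under 0.05 (lmFit). The number of called member probes was then 0, as was that of all called probes. With 1 array left out it ranged from 0 to 15. For the antigen presentation list, with 2 called genes, the numbers were 5 after normexp with quantile normalization, 1 without the filter, 0 without moderation, and 0 to 8 with 1 array left out. For the chromosome 16 neighbours, also with 2, they were 0 without moderation, 4 with the median of a gene's probes and 0 to 10 with 1 array left out. With the replicate block 6 member probes and 2 genes in each of these lists were called, DMB2 and CD74 no longer being among them (limma, adjusted p = 0.0648 and 0.0543). The replicate numbers share no stated source, and replicate deviations correlated at 0.03 between groups. Signs turned only for TAP probes, and only with an array left out. They were 0.10, 0.12 and 0.82 for TAP1 and 0.21 for TAP2 without group 2 replicate 1, and 0.0020 for that TAP2 probe without group 1 replicate 1. At the other end of the range, without group 2 replicate 2, these 4 probes differed by -0.86, -0.45, -1.23 and -0.31. Fewer arrays leave 1 residual degree of freedom, and the spread then comes only from the group that keeps both arrays. Where other values moved, the cause was not tested.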
